A study of Mus musculus with 4 samples.

Results

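Smooth muscle cells of the mouse carotid artery were described in 4 single-cell RNA-sequencing libraries, 1 from before wire injury (day 0) and 1 each from days 3, 7 and 14 after it. A cell barcode was a member when it held at least 500 genes, at least 1000 unique molecular identifiers (UMIs), at most 10% mitochondrial UMIs, at most 1 UMI of the leukocyte gene Ptprc, no UMI of the endothelial gene Cdh5, at least 1 UMI of Myh11, and at least 0.5% of its UMIs from Myh11, Acta2, Tagln and Myl9 together. The cells were thus chosen by the measured UMIs of these 4 genes, called rule genes below, and of Ptprc and Cdh5, and the levels of these genes are given as a description only. The rule found 139 members among 6161 barcodes: 6 of 333 at day 0, 51 of 1689 at day 3, 22 of 3001 at day 7 and 60 of 1138 at day 14. All libraries came from C57BL/6 mice labelled as 11 weeks old before injury, and the study's methods state that the animals were male. Injured carotids were taken after a wire had been passed through the vessel, vessels with a thrombus were left out, and the vessels of several mice were pooled for each time point. The tissue was digested for 1 h and dead cells were removed in the same way for each library, per the labels. Membership rested on the transcripts found at sampling, so a cell of smooth muscle origin without Myh11 UMIs was not a member. There was 1 library per day, so no comparison below was tested. Intervals of single genes and of shares are 95% intervals that cover counting error only. The interval beside the median of a gene list runs from the median of its genes' lower limits to the median of their upper limits. It is called the counting interval of that median below, and it is not a 95% interval of the median.

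Vascular smooth muscle cells form the media of the artery and set its tone by contracting. The contractile programme includes smooth muscle myosin, smooth muscle actin and the proteins that couple them to calcium, and serum response factor with its partner myocardin drives many of its genes through CArG boxes in their promoters. After injury, smooth muscle cells are known for a less contractile state in which they divide, migrate and make extracellular matrix.

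The promoters of the rule genes are shown because the rule rests on these genes and because CArG boxes are the best known element of smooth muscle promoters. Of the 4 rule genes, Acta2 and Myl9 matched the RefSeq promoter table (build GRCm38.p6), and Myh11 and Tagln did not. The windows run 5′ to 3′ from 250 bases before to 50 bases after the annotated start, at chr19:34255324-34255623 on the minus strand for Acta2, which encodes smooth muscle actin, and at chr2:156775214-156775513 on the plus strand for Myl9, which encodes the regulatory light chain of myosin. Capitals mark CArG boxes, searched on both strands as CC, 6 bases of A or T, and GG, with at most 1 G or C allowed among the 6 inner bases.
Acta2 promoter: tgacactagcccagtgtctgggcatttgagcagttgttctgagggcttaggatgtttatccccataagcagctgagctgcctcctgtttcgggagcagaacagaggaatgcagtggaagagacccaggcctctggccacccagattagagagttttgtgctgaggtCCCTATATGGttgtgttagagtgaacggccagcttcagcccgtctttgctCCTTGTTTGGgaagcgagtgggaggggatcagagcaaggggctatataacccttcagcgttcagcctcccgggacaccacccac
Myl9 promoter: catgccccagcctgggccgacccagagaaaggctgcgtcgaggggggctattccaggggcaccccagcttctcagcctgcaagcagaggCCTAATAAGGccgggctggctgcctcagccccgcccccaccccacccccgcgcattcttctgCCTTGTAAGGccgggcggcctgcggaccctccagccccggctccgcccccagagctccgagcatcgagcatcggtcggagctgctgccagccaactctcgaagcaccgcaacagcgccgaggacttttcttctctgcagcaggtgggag
The boxes of Acta2 began 84 and 34 bases before the start and each held 1 G or C among the inner bases. The first box of Myl9 began 161 bases before the start and held A and T alone, and the second began 99 bases before it with 1 G or C. A box of A and T alone was found in 1.63% of 32851 RefSeq promoter windows of the same length, and a box with at most 1 G or C in 9.98%. Among 15 other contractile genes described below, 14 matched the table and 1, Vcl, held a box in its window, of A and T alone.

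The libraries of days 0, 3, 7 and 14 held 2672722, 18989081, 27973418 and 13329564 UMIs, and the summed members 78357, 2056589, 600757 and 1201799. The median member had 15170, 38146, 21975 and 18391 UMIs, with fewer than 10000 in 28 of the 139 members. A gene with no UMI in the day 0 members may have had up to 38.3 counts per 1000000 UMIs (CPM), the level of 3 UMIs, against 1.46, 4.99 and 2.50 CPM on days 3, 7 and 14. The deepest member gave 27%, 6.23%, 21.9% and 5.2% of its day's UMIs. Some barcodes occurred in more than 1 library: 152 were shared by days 0 and 3, 64 by days 7 and 14 and 1 by days 3 and 7. Of the 152, 104 were deeper at day 0, by a median 21.5 times, and 48 were deeper at day 3, by a median 109 times. Expression of the same barcode in both libraries had a median Pearson correlation of 0.545 across genes in these pairs, against 0.437 between different barcodes, where genes are not independent replicates. Members with a shared barcode numbered 5, 11, 4 and 0 on days 0, 3, 7 and 14, and 2 of them were the shallower copy, 1 each at days 0 and 3. Without those 2, each of the main values below (member share, spread, and medians of the other contractile and matrix genes by day and by tertile) moved by less than its counting interval.

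The label of smooth muscle was checked on 7 markers that the rule did not use: Cnn1, Mylk, Smtn, Lmod1, Synpo2, Myocd and Itga8. At least 3 of them had UMIs in 128 of 139 members and all 7 in 97. Of the 11 members with fewer than 3, 2 had none, and their median depth was 4014 UMIs. The 10 immune markers, of which the rule limited Ptprc, together took 0%, 0.00486%, 0.0115% and 0.0025% of the members' UMIs on days 0, 3, 7 and 14, against 2.81% in the barcodes with at least 2 Ptprc UMIs at day 3. The 10 endothelial markers together took 0.00638, 0.0018, 0.00333 and 0.00524% of the members' UMIs, against 0.00652, 0.0013, 0.00172 and 0.00323% in barcodes with Pdgfra and without Myh11, and 7, 7, 6 and 5 of the 10 were at 0, among them Kdr, Tie1 and Cldn5 on each day and Cdh5, which the rule itself set to 0. Fibroblast markers took 0.0702, 0.0331, 0.30 and 0.176%, against 3.08, 1.14, 1.56 and 2.8% in the barcodes with Pdgfra, and pericyte markers took 0.0791, 0.0412, 0.0857 and 0.0745%. Members with at least 0.1% of their UMIs from the fibroblast genes Lum and Dcn numbered 0, 2, 5 and 11. Pericyte markers reached 0.4% in 3 members of day 7 and 2 of day 14, led by Rgs5, and the nuclear RNA Malat1 reached 15% of UMIs in 3 members each of those days. Leaving out the members high in pericyte genes or Malat1 or with fewer than 3 markers left 5, 46, 15 and 54 members and moved none of the same main values beyond their counting intervals.

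Of the barcodes past the gene, UMI and mitochondrial limits, members made up 2.41% before injury, with an exact binomial interval between 0.889 and 5.17. The share was 4.26% on day 3 (3.19 to 5.57), 1.09% on day 7 (0.684 to 1.65) and 6.82% on day 14 (5.24 to 8.69). Against the barcodes with at most 1 Ptprc UMI, which leaves out most leukocytes, the shares were 2.64% (0.976 to 5.66), 13.0% (9.84 to 16.7), 5.05% (3.19 to 7.54) and 9.80% (7.56 to 12.4). On this denominator the intervals of days 3 and 14 lay above that of day 0 and overlapped each other. The day 3 share over all barcodes past the limits was 1.98% when members above 30000 UMIs were left out and 7.91% among barcodes of at least 10000 UMIs, so the share depended on the depth limits. A further 91 barcodes past the limits held Myh11 UMIs and at most 1 Ptprc UMI but fell short of the 0.5% share, 5, 20, 34 and 32 on days 0, 3, 7 and 14. At day 0 the cells nearest to that threshold stood at 2.23% inside and 0.105% outside. On days 3, 7 and 14 the nearest values were 0.586% and 0.487%, 0.519% and 0.412%, and 0.768% and 0.374%.

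The share of UMIs from the 4 rule genes described how contractile a member was. Its lowest, median and highest values were 2.23, 3.35 and 5.27% among the 6 members of day 0, 0.586, 2.67 and 10.5% at day 3, 0.519, 1.87 and 5.22% at day 7 and 0.768, 3.48 and 7.39% at day 14. At day 3 the 2 highest shares came from members of 2185 and 1501 UMIs with 1 Malat1 UMI each and under 0.1% mitochondrial UMIs. Members with at most 1 Malat1 UMI numbered 0, 9, 3 and 1, and without them the highest day 3 share was 5.79% and no main value moved beyond its counting interval. The 90th percentile was 1.74, 6.53, 6.53 and 3.98 times the 10th on days 0, 3, 7 and 14, and the standard deviation was 1.02, 2.02, 1.37 and 1.65 percentage points, so day 14 was narrower than day 7 as a ratio and wider in points. Counting alone gave the share of a typical member a standard deviation of 0.168, 0.0873, 0.110 and 0.137 percentage points. Shares under 2% were held by 0, 22, 12 and 14 members and shares of at least 4% by 1, 12, 4 and 25. The day 0 members lay within the range of each later day, apart from the highest against day 7, and each later day also held cells below the lowest day 0 value. On days 3, 7 and 14 the lower end of the range depended on the 0.5% threshold, whereas the day 0 members were the same number at 0.25% and 1%. With a threshold of 0.25% the ratio of the percentiles at day 3 was 10.6, and with 1% it was 4.54. Over all the alternatives this ratio ran from 3.62 to 11.3 at day 7 and from 2.92 to 5.25 at day 14, so the ranges of these days overlapped.

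**Figure D1:**
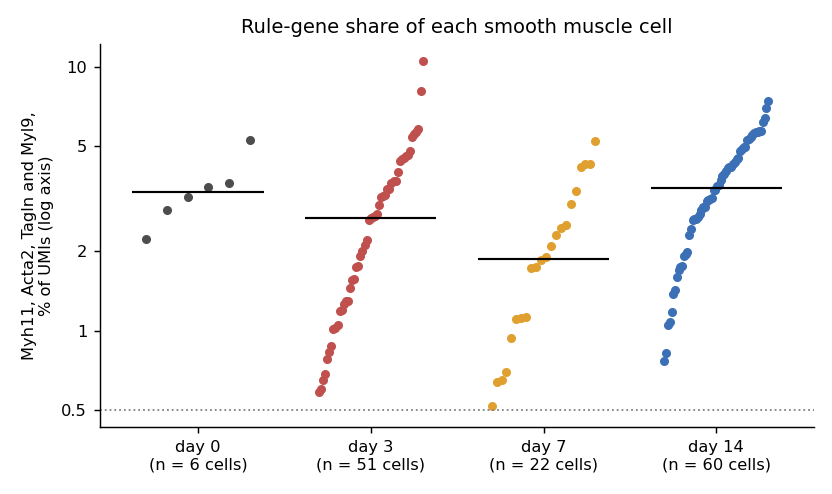
Share of each member's UMIs from Myh11, Acta2, Tagln and Myl9 (percent, log axis) by day, with 1 point per cell, the day's median as a bar and the 0.5% threshold of the rule as a dotted line. Medians were 3.35%, 2.67%, 1.87% and 3.48% on days 0, 3, 7 and 14, and the cells of days 3 and 7 reach down to the threshold.

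Among the rule genes, Myh11, the smooth muscle myosin heavy chain, differed most between days. Its level in the summed day 0 members was 5641 CPM (Poisson interval 5127 to 6192). On days 3, 7 and 14 it was 1329 (1279.5 to 1379.7), 1643 (1542 to 1749) and 3938 CPM (3827 to 4052). The lowest, median and highest single members were 2671, 4652 and 7981 CPM at day 0, 167, 1188 and 6211 at day 3, 59.4, 1250.3 and 6463 at day 7 and 177, 3232 and 9591 at day 14. Below the lowest day 0 member lay 38 of 51 members at day 3, 15 of 22 at day 7 and 17 of 60 at day 14. Most members of days 3 and 7 thus stood under the whole day 0 range. That lowest member was the barcode of 1123 UMIs, the shallower copy of a shared barcode, with 3 Myh11 UMIs (0.267%). The next-lowest day 0 member stood at 0.374% of UMIs, above the day 14 median of 0.323%. Whether most day 14 members stood within or above the day 0 range thus depended on that barcode. Acta2 reached 17586, 12362, 13694 and 19641 CPM on days 0, 3, 7 and 14. Tagln, which encodes the actin-binding protein transgelin, reached 9942, 7861, 5824 and 12282 CPM, and Myl9 3203, 1864, 1711 and 3222 CPM. Acta2, Tagln and Myl9 were thus lower than at day 0 on days 3 and 7 and at or above it at day 14, with wide overlap between cells. Of the UMIs of the 4 genes, Myh11 gave 15.5, 5.68, 7.18 and 10.1%, so its part was smaller on each later day than at day 0. Acta2 gave 48.4, 52.8, 59.9 and 50.3% of them.

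**Figure D2:**
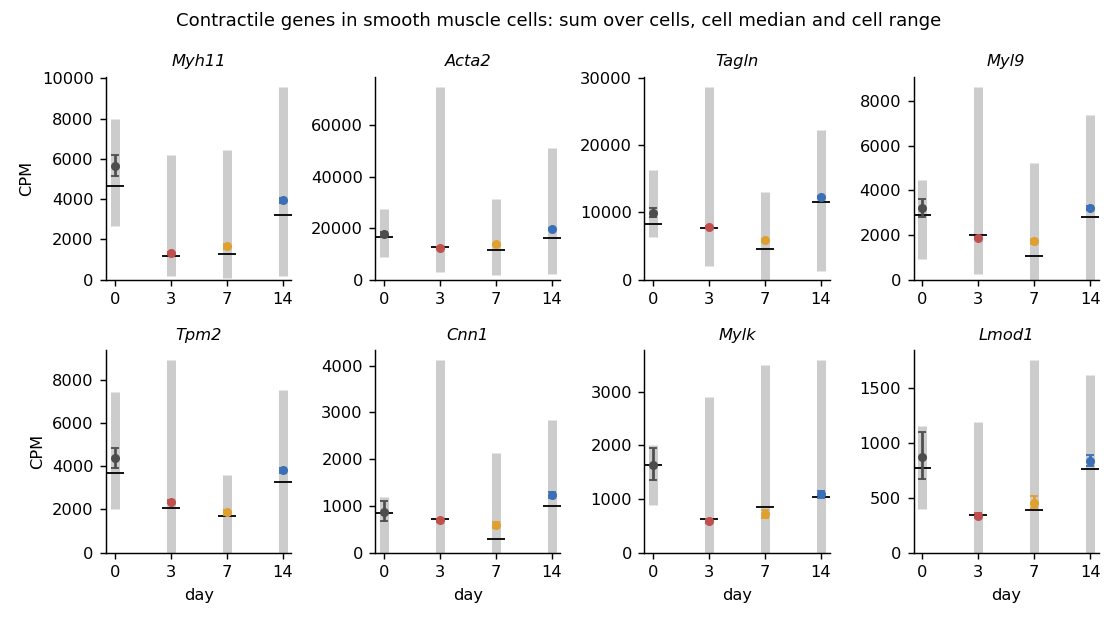
Levels of 8 contractile genes in the members by day, in CPM, with a dot for the summed members and its 95% Poisson interval, a dash for the median cell and a grey bar for the range of the cells. The Myh11 sum was 5641, 1329, 1643 and 3938 CPM on days 0, 3, 7 and 14, and the ranges of single cells overlap between days in each panel.

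Beyond the rule genes, the programme that set the members apart from all other barcodes past the limits was led by Itga8, an integrin chain of smooth muscle, Cnn1, the thin-filament protein calponin, and Mylk, the kinase that phosphorylates the myosin light chain. Genes were ranked by their smallest difference over the 4 libraries, which is a description because the rule chose the cells by genes of the same programme. Itga8 stood at 3267, 948, 935 and 1418 CPM on days 0, 3, 7 and 14, against between 6.63 and 25.7 CPM in the other barcodes. Npnt, which encodes nephronectin, a ligand of the Itga8 integrin, stood at 1838, 1013, 706 and 1262 CPM, against between 2.81 and 19. The next genes in order were Actg2, Tpm2, Ppp1r14a, Sost, Sh3bgr, Bcam, Dmd, Synpo2, Col18a1, Kcnmb1, Rcan2, Gm13889, Smtn, Mcam, Susd5 and Lmod1. Dystrophin, encoded by Dmd, stood at 906, 250.4, 296 and 715 CPM, and Sost, a secreted Wnt antagonist known from bone, at 1889, 154, 296 and 841 CPM. Sost had UMIs in 5 of 6 members at day 0, 22 of 51 at day 3, 12 of 22 at day 7 and 48 of 60 at day 14. The 15 other contractile genes together took 2.01, 1.04, 0.985 and 1.75% of the members' UMIs, against 0.074, 0.129, 0.141 and 0.0824% in the barcodes with Pdgfra and 0.0368, 0.053, 0.0523 and 0.0415% in those with Ptprc.

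The question of how the programme differed after injury was read from the summed members of each later day against those of day 0. Values are log2 ratios with 10 CPM added to each level, for genes with at least 20 UMIs in both sums together. All 3 comparisons share the day 0 members, so they are not independent of each other. Of 15 contractile genes outside the rule, 8 were at least 2-fold lower at day 3 and none was 2-fold higher, where 10.2% of 8400 genes compared were at least 2-fold lower and 21.3% at least 2-fold higher, shares called the background below. The list's median was -1.02 (-1.24 to -0.72), beside a median of 0.07 over all genes compared. At day 7, 6 of 15 were at least 2-fold lower and none higher, with a median of -0.92 (-1.37 to -0.47), where 10.9% of 4863 genes were lower, 16.1% were higher and the median gene was at 0.04. At day 14, 1 of 15 was lower and none higher, with a median of -0.19 (-0.58 to 0.19), where 7.31% of 6781 genes were lower, 12.9% were higher and the median gene was at 0.01. Over members with at most 30000 UMIs the day 3 median was -0.33, and as a mean over cells it was -0.60. Depth differed with the day, since the median member of day 3 was the deepest, and its part in the result was not tested further.

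Synpo2, an actin-binding protein of the Z-disc, had the lowest ratio to day 0 at day 7 among the 15 genes and, after Des, at day 3. It stood at 906, 200.3, 179.8 and 463 CPM on days 0, 3, 7 and 14, and its ratio to day 0 was 0.221 (0.172 to 0.289) at day 3, 0.198 (0.146 to 0.272) at day 7 and 0.511 (0.399 to 0.664) at day 14. Mylk stood at 1634, 591, 717 and 1087 CPM, with 33 of 51, 13 of 22 and 23 of 60 members of days 3, 7 and 14 below the lowest day 0 member. Its ratio to day 0 was 0.362 (0.301 to 0.437), 0.439 (0.36 to 0.539) and 0.665 (0.554 to 0.804). Ppp1r14a, an inhibitor of myosin phosphatase, stood at 1072, 389, 316 and 807 CPM, and Lmod1, an actin nucleator of smooth muscle, at 868, 336, 454 and 837 CPM. Both were lower than at day 0 on days 3 and 7 and nearer to that level at day 14, where the ratio of Lmod1 was 0.965 (0.754 to 1.25). The actin crosslinker Flna stood at 3599, 1459.7, 1257 and 2217 CPM, lower than at day 0 on each later day. Cnn1 stood at 881, 694, 596 and 1227 CPM with ratios of 0.789 (0.619 to 1.02), 0.677 (0.522 to 0.889) and 1.39 (1.09 to 1.8), and the tropomyosin gene Tpm1 at 2221, 1090.2, 1204 and 2708 CPM with ratios of 0.491 (0.421 to 0.576), 0.542 (0.459 to 0.643) and 1.22 (1.05 to 1.43). Actg2, the gamma actin of smooth muscle, was the only gene of the list with a ratio above 1 on each later day, at 1.15 (0.752 to 1.84), 1.62 (1.05 to 2.63) and 1.04 (0.678 to 1.69), and its intervals at days 3 and 14 included 1. Des, which encodes desmin, had its 9 day 0 UMIs in 1 cell, so its ratios of 0.0508, 0.362 and 0.42 rested on that cell. With a mitochondrial limit of 5% its log2 ratios at days 7 and 14 were 2.60 and 2.88, and as a mean over cells the day 7 value was 0.78, in the other direction.

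Regulators of the contractile programme were sparsely counted. Myocd, which encodes myocardin, stood at 166, 121, 99.9 and 121 CPM, with 13 UMIs at day 0 and ratios of 0.73 (0.419 to 1.39), 0.602 (0.327 to 1.2) and 0.732 (0.415 to 1.41), so no difference was detectable at this depth. Srf stood at 89.3, 46.7, 59.9 and 52.4 CPM and the MADS-box factor gene Mef2c at 306, 139.6, 181 and 255 CPM. The medians of the activators were -0.34, -0.59 and -0.38 on days 3, 7 and 14, with 1 of 8, 0 of 6 and 0 of 6 genes at least 2-fold lower (background 10.2, 10.9 and 7.31%) and 1, 0 and 0 at least 2-fold higher (21.3, 16.1 and 12.9%). Klf4, a factor known to oppose the contractile programme, stood at 102, 195, 136 and 176 CPM, with ratios of 1.91 (0.96 to 4.45), 1.34 (0.648 to 3.2) and 1.73 (0.861 to 4.05) from 8 UMIs at day 0. The medians of the opponents were 0.30, 0.07 and -0.03 over 4, 2 and 2 genes, and at the bound the day 3 median was -0.14, of opposite sign.

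Genes of calcium and potassium handling were lower on the later days in the median. Their medians were -0.87 (-1.56 to -0.25) over 8 genes at day 3, -0.69 (-1.41 to -0.12) over 8 at day 7 and -0.63 (-1.22 to 0.13) over 10 at day 14, with 4, 3 and 3 genes at least 2-fold lower (background 10.2, 10.9 and 7.31%) and 0, 0 and 1 at least 2-fold higher (21.3, 16.1 and 12.9%), or none higher when set to its bound. Itpr1, a calcium release channel of the endoplasmic reticulum, stood at 383, 110.4, 93.2 and 172 CPM, with a ratio to day 0 of 0.288 (0.196 to 0.437), 0.243 (0.154 to 0.393) and 0.45 (0.306 to 0.684). Kcnmb1, the smooth muscle subunit of the large-conductance potassium channel, stood at 306, 145, 128 and 172 CPM, and the calcium pump gene Atp2a2 at 562, 378, 356 and 451 CPM. With a mitochondrial limit of 5% the log2 ratios of Kcnmb1 to day 0 were 0.82 and 0.53 at days 3 and 7, in the other direction. Pln, which encodes phospholamban, had 8, 8, 2 and 15 UMIs, with a ratio of 0.0381 (0.0125 to 0.116) at day 3, and 75% of its day 0 UMIs came from 1 cell. Genes of tone receptors and the cyclic GMP pathway had medians of -1.21 (-1.84 to -0.47), -0.92 (-1.45 to -0.08) and -0.49 (-1.32 to 0.32), with 4 of 7, 3 of 7 and 0 of 8 genes at least 2-fold lower and none higher, beside the same background. Gucy1a1 and Gucy1b1, the subunits of the nitric oxide receptor guanylate cyclase, stood at 510.5, 115, 335 and 377 CPM and 306, 98.2, 115 and 176 CPM. The ratio of Gucy1a1 to day 0 was 0.225 (0.16 to 0.323) at day 3 and 0.738 (0.534 to 1.05) at day 14.

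Genes of the basement membrane and its integrins had these values against day 0. Their medians were 0.14 (-0.49 to 0.66), 0.00 (-0.81 to 0.61) and 0.12 (-0.57 to 0.53), with 3 of 14, 3 of 14 and 0 of 13 genes at least 2-fold higher and 5, 6 and 4 at least 2-fold lower on days 3, 7 and 14. At the bound the day 3 median was -0.077, of opposite sign, and 2 genes were at least 2-fold higher on each of days 3 and 7. Over all genes compared 21.3, 16.1 and 12.9% were at least 2-fold higher, so the share of the list at day 3 was near the background, and 10.2, 10.9 and 7.31% were at least 2-fold lower. The integrin chains Itga8, Itga1 and Itga7 were among the lower ones. Itga8 stood at 3267, 948, 935 and 1418 CPM, and its ratio to day 0 was 0.29 (0.255 to 0.332), 0.286 (0.247 to 0.333) and 0.434 (0.38 to 0.497). The laminin-binding chain Itga7 stood at 229.7, 51.1, 36.6 and 73.2 CPM and the collagen-binding chain Itga1 at 383, 85.6, 138 and 133 CPM. Itga5, a chain of the fibronectin receptor, stood at 217, 353, 191 and 284 CPM and did not share their order, with ratios of 1.62 (1.01 to 2.8), 0.882 (0.528 to 1.57) and 1.31 (0.805 to 2.27). Among laminin chains, Lama4 stood at 229.7, 51.5, 61.6 and 80.7 CPM and Lamc1 at 63.8, 197, 163 and 126 CPM. The type IV collagen gene Col4a1 differed little, at 727, 653, 822 and 792 CPM.

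Elastic fibre genes had positive medians against day 0, with intervals that included 0 at days 3 and 14. The medians were 0.34 (-0.16 to 0.96), 0.88 (0.10 to 1.53) and 0.65 (-0.05 to 1.59), with 3 of 9, 4 of 10 and 3 of 10 genes at least 2-fold higher and none at least 2-fold lower, where 21.3, 16.1 and 12.9% of all genes compared were at least 2-fold higher. Eln, which encodes tropoelastin, stood at 3114, 8519, 8379 and 8740.2 CPM, and the ratio to day 0 was 2.74 (2.41 to 3.12), 2.69 (2.37 to 3.07) and 2.81 (2.47 to 3.2). The lowest, median and highest members were 1223, 3361 and 7872 CPM at day 0, 0, 4252 and 30207 at day 3, 0, 5124 and 31012 at day 7 and 460.3, 4836 and 78320 at day 14. Above the highest day 0 member stood 16 of 51, 9 of 22 and 18 of 60 members, so the median cell of each later day lay within the day 0 range, and the cells above that range were a minority. Lox, the enzyme that crosslinks elastin and collagen, stood at 204, 906, 816 and 524 CPM, with a ratio of 4.44 (2.73 to 7.78) at day 3. The microfibril gene Mfap4 stood at 319, 406, 727 and 801 CPM.

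In the median, matrix genes stood above their day 0 level on all 3 later days. At day 3, 14 of 17 genes were at least 2-fold higher than at day 0 and none was 2-fold lower, at day 7 14 of 18 and none, and at day 14 8 of 15 and none, against a background of 21.3, 16.1 and 12.9% higher. The medians were 1.78 (0.87 to 1.99), 2.44 (1.34 to 2.97) and 1.19 (0.60 to 1.53). Where genes without UMIs on either day were set to their bound, the medians were 1.19, 1.93 and 0.96, and 13, 14 and 7 genes were at least 2-fold higher. Over members with at most 30000 UMIs the medians of days 3 and 7 were 0.83 and 1.05, and under a mitochondrial limit of 5% those of days 3 and 14 were 2.19 and 1.95. Fibroblast markers also had positive medians at days 7 and 14, 3.02 and 1.33, or 0.97 and 0.57 at the bound. Without the members high in Pdgfra, Dcn and Lum the matrix medians were 1.78, 1.35 and 0.87 on days 3, 7 and 14. The 18 genes together took 1.22, 3.78, 4.31 and 3.21% of the members' UMIs on days 0, 3, 7 and 14, against 2.58, 5.32, 8.44 and 8.64% in the barcodes with Pdgfra. In the barcodes with Ptprc the share was 0.0116, 0.434, 0.473 and 0.167%, and since leukocytes make some of the 18 gene products, such as Fn1 and Spp1, it is not a plain measure of free RNA. Thinned to 1000 UMIs, Col1a1, a fibrillar collagen gene that leukocytes should lack, was found in 33.3, 62.7, 72.7 and 61.7% of members and 0, 5.6, 21.7 and 17.9% of those barcodes, and without thinning in 100, 80.4, 100 and 98.3% and 22.7, 32.8, 77.8 and 67.5%, at median depths of 15170, 38146, 21975 and 18391 and 7794, 8002, 9532 and 6902 UMIs.

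Col1a1, a chain of type I collagen, stood at 396, 2887, 6004 and 1984 CPM, with 31 UMIs in the day 0 members. Its ratio to day 0 was 7.3 (5.14 to 10.8) at day 3, 15.2 (10.7 to 22.4) at day 7 and 5.02 (3.52 to 7.4) at day 14. The lowest, median and highest members were 58.3, 487 and 1781 CPM at day 0, 0, 2063 and 7935 at day 3, 278, 1429.5 and 14143 at day 7 and 0, 1092 and 10248 at day 14, and 32 of 51, 9 of 22 and 22 of 60 members exceeded the highest of day 0. Most members of day 3 thus lay above the day 0 range, and most of days 7 and 14 did not. The highest day 0 value came from the member of 1123 UMIs, the shallower copy of a shared barcode. The counts above it, and the place of days 7 and 14, therefore rested on few UMIs in that barcode. Fn1, which encodes fibronectin, stood at 383, 2935, 2563 and 1766 CPM, with ratios of 7.67 (5.37 to 11.4), 6.7 (4.67 to 9.96) and 4.61 (3.22 to 6.86). Mgp, the matrix Gla protein that inhibits calcification, stood at 4569, 15663, 14252 and 15921 CPM. Its ratio was 3.43 (3.09 to 3.82), 3.12 (2.81 to 3.48) and 3.48 (3.14 to 3.88), and its cells ranged from 65.5 to 74226 CPM at day 14, so the days overlapped widely. The proteoglycan gene Bgn differed less, at 2425, 3529.6, 4055 and 4259 CPM. Vcan, which encodes versican, was the only gene of the list below its day 0 level on each later day, at 191, 109.9, 93.2 and 99 CPM, and 80% of its day 0 UMIs came from 1 cell.

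Timp1, an inhibitor of metalloproteinases, had no UMI in the day 0 members and 1824, 376 and 150 UMIs on days 3, 7 and 14. It was at least 23.2-fold, 16.3-fold and 3.26-fold higher than the day 0 limit of 3 UMIs, and 39 of 51, 14 of 22 and 30 of 60 members held it. Tnc, which encodes tenascin C, had no UMI at day 0 and stood at 239, 127 and 109.8 CPM, at least 6.25-fold, 3.3-fold and 2.87-fold higher. Thbs1, which encodes thrombospondin 1, had 1 UMI at day 0, in the member of 1123 UMIs whose barcode was deeper at day 3, and its ratio at day 3 was 63.1 (11.3 to 2495). Some values of the list rested on 1 cell. Spp1, which encodes osteopontin, stood at 1405 CPM at day 3, of which 53.2% came from 1 member of 41656 UMIs, and the level without it was 671 CPM. Over members with at most 30000 UMIs its day 3 log2 ratio was -0.041, in the other direction. Thinned to 1000 UMIs per cell, Spp1 was found in 17.6% of members at day 3 (8.4 to 30.9), whose median depth before thinning was 38146 UMIs. It was found in 17.4% of the barcodes with Ptprc (median depth 8002) and 5.98% of those with Pdgfra (2.44 to 11.9, median depth 40946). The interval of the members thus included the share of the barcodes with Ptprc. Cthrc1, a collagen triple helix repeat protein, stood at 379.5 CPM at day 7, of which 89.5% came from the member of 131625 UMIs, and it was at 51.2 CPM without that cell.

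The list of modulated smooth muscle genes, drawn from states described in diseased arteries, overlaps the matrix list by Spp1, Fn1, Col1a1 and Col1a2. Of its genes, 10 of 15 were at least 2-fold higher and 1 lower at day 3, 11 of 15 and 1 at day 7, and 8 of 14 and none at day 14 (background 21.3, 16.1 and 12.9% higher), with medians of 2.0 (0.27 to 2.59), 2.17 (0.61 to 2.67) and 1.33 (0.35 to 2.49). At the bound, the medians were 1.15, 2.16 and 1.09, with 8, 10 and 7 genes at least 2-fold higher. Vcam1, a leukocyte adhesion molecule, had no UMI at day 0 and stood at 566, 563 and 191 CPM, in 32 of 51, 10 of 22 and 27 of 60 members. Thinned to 1000 UMIs, Vcam1 was found in 17.6, 22.7 and 8.33% of members on days 3, 7 and 14. The thinned shares were 0.622, 2.34 and 0.746% in barcodes with Ptprc and 21.4, 23.1 and 7.91% in those with Pdgfra. It was at least 14.8-fold, 14.7-fold and 4.98-fold higher than the day 0 limit. S100a4 stood at 689, 3144, 2220.5 and 1318 CPM and the galectin gene Lgals3 at 76.6, 207, 178 and 193 CPM. As a mean over cells, Lgals3 lay below day 0 at day 7 (log2 ratio -0.21) and day 14 (-0.30). The non-muscle myosin gene Myh10 was the gene that was lower, at 702, 228, 279.6 and 467 CPM. Lum, which encodes the collagen-binding proteoglycan lumican and is also a fibroblast marker, had no UMI at day 0. At day 3 it was under the day 0 limit, and on days 7 and 14 it stood at 1458 and 729 CPM, at least 38.1-fold and 19-fold above that limit, in 9 of 22 and 34 of 60 members. These are 40.9% and 56.7% of members, beside 30.9% and 22.4% of the shallower barcodes with Ptprc. Thinned to 1000 UMIs, Lum was found in 27.3% (10.7 to 50.2) and 20% (10.8 to 32.3) of members, against 6.19% (5.06 to 7.5) and 2.99% (1.3 to 5.8). The fibroblast markers as a list had medians of -0.52, 3.02 and 1.33 over 6, 7 and 6 genes, or -0.52, 0.97 and 0.57 at the bound, and their part in these values was not tested.

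**Figure D3:**
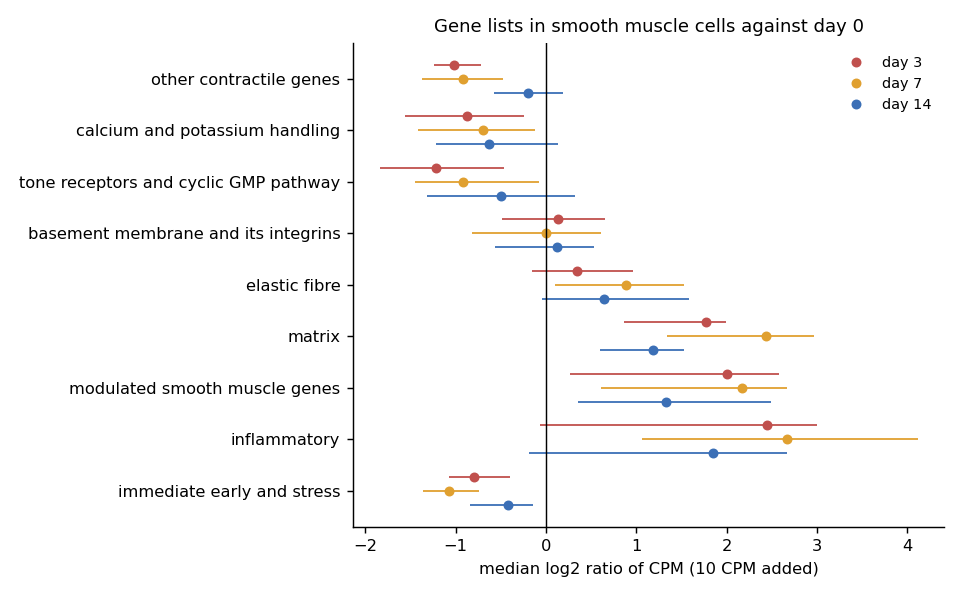
Median log2 ratio of each gene list to day 0 (10 CPM added) in the summed members of days 3, 7 and 14, with lines from the medians of the genes' lower and upper counting limits. Matrix, modulated and inflammatory lists lie above 0 on each day, and the contractile, calcium and tone lists lie below it.

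Inflammatory genes had few UMIs, many of them in few cells, and 4 of 9, 7 of 10 and 4 of 10 were above day 0 beyond counting error on days 3, 7 and 14. With 10 CPM added, all genes compared were at least 2-fold higher at days 3 and 7, 9 of 9 and 10 of 10, and 8 of 10 at day 14 (background 21.3, 16.1 and 12.9%), with medians of 2.45 (-0.07 to 3.01), 2.67 (1.06 to 4.12) and 1.85 (-0.19 to 2.66), or 1.01, 1.82 and 0.94 at the bound. Of these genes, 6, 7 and 8 had no UMI at 1 of the days compared, and at their bound 5 of 9, 7 of 10 and 3 of 10 were at least 2-fold higher. The list took 0.0128, 0.116, 0.203 and 0.078% of UMIs. Cxcl12, a chemokine of stromal cells, was the most widely held, with UMIs in 39 of 51, 13 of 22 and 36 of 60 members at 51, 530.5, 281 and 108 CPM on days 0, 3, 7 and 14. Its 4 day 0 UMIs came from the 1123-UMI member, and as a mean over cells its log2 ratio to day 0 was -0.67 at day 3 and -1.25 at day 7, in the other direction from the sums. Ptgs2, the inducible cyclooxygenase, stood at 214, 61.6 and 73.2 CPM in 23, 10 and 17 members and had no UMI at day 0. The monocyte chemokine gene Ccl2 had 99.4% of its day 14 UMIs and the neutrophil chemokine gene Cxcl1 89.8% of them in 1 member of 22640 UMIs, in which the fibroblast markers took 1.92% and the matrix genes 7.89% of UMIs. Without that cell, Ccl2 was at 0.848 CPM and Cxcl1 at 11 CPM. Lcn2, which encodes the acute-phase protein lipocalin 2, stood at 614 CPM at day 7, of which 57.5% came from 1 member, and at 281 CPM without it.

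Immediate early and stress genes, which also respond to tissue digestion, were lower than at day 0 in the median, at -0.80 (-1.08 to -0.40), -1.07 (-1.36 to -0.74) and -0.41 (-0.84 to -0.14). Of these, 6 of 16, 9 of 15 and 5 of 16 were at least 2-fold lower (background 10.2, 10.9 and 7.31%) and 2, 0 and 1 at least 2-fold higher (21.3, 16.1 and 12.9%) on days 3, 7 and 14. Cell by cell, the list took between 0.349% and 4.53% of UMIs at day 0. The highest value was that of 1 member of 17166 UMIs, and the next was 2.17%. Later days ran from 0.0508 to 5.46%, 0.0185 to 7.85% and 0.105 to 5.19%, so the day 0 cells lay within their ranges. The heat shock gene Hspa1b stood at 3395, 874, 886 and 604 CPM and its near-identical neighbour Hspa1a at 2169.6, 822, 1092 and 831 CPM, so reads may have been split between them. In the day 0 members, 57.1% and 61.2% of their UMIs came from 1 member. The nuclear receptor gene Nr4a1 stood at 1008, 479, 245 and 346 CPM and Fosb, an AP-1 subunit, at 944, 349, 305 and 548 CPM, while Fos stood at 2169.6, 1481, 1245 and 2533 CPM. With a mitochondrial limit of 5% the day 3 log2 ratio of Nr4a1 was 0.021, in the other direction.

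Proliferation genes were detected mainly at days 3 and 7. The 15 genes had 3 UMIs in all at day 0, and 14 of 15 genes compared at day 3 and 11 of 11 at day 7 were at least 2-fold higher (background 21.3 and 16.1%), with medians of 2.19 (-0.24 to 2.59) and 2.94 (0.25 to 3.67), or 0.08 and 1.18 at the bound. At the bound, 5 of 15 and 6 of 11 were at least 2-fold higher. At day 14 only Pcna, the clamp of DNA replication, had enough UMIs, at 33.3 CPM against 12.8 at day 0. Mki67, the standard marker of cycling cells, had UMIs in 11 of 51 members at day 3, 4 of 22 at day 7 and none at days 0 and 14, at 92.9 and 91.6 CPM. The mitotic topoisomerase gene Top2a had UMIs in 12 and 4 members. At day 7, 81.8% of the Mki67 UMIs came from the member of 131625 UMIs, and the level without it was 21.3 CPM. Thinned to 1000 UMIs per cell, at least 2 UMIs of the list were found in 0 of 6, 7 of 51, 4 of 22 and 0 of 60 members on days 0, 3, 7 and 14. The shares were 13.7% at day 3 (5.7 to 26.3) and 18.2% at day 7 (5.19 to 40.3), and without thinning they were 16.7%, 64.7%, 50% and 40%. The upper limits for days 0 and 14 were 45.9% and 5.96%, so the intervals of days 3 and 7 overlapped that of day 0. In barcodes with S100a8 and S100a9, which mark neutrophils, cells that do not divide, the thinned share was 2.1% (0.435 to 6.01) at day 3 and 0% (0 to 7.11) at day 7, and these intervals overlapped those of the members. The thinned share was 12.0% (6.70 to 19.3) and 9.23% (4.86 to 15.6) in barcodes with Pdgfra on these days. It was 6.72% (5.09 to 8.67) and 4.55% (3.58 to 5.70) in those with Ptprc. These intervals overlapped those of the members too, so the signal was not particular to the members.

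Notch and growth factor genes showed no common direction. The Notch list had medians of -0.30, 0.42 and 0.28 over 7 genes on each day. Within it, Heyl, a Notch target of smooth muscle, stood at 229.7, 41.8, 58.3 and 141 CPM, and Hes1, another target, at 25.5, 139.6, 115 and 96.5 CPM, on opposite sides of the day 0 level in the sums. The day 7 log2 ratio of Hes1 was -0.16 over members with at most 30000 UMIs, in the other direction. Notch3, the Notch receptor of mural cells, had no UMI at day 0 and stood at 68.2 and 54.1 CPM on days 7 and 14, at least 1.78-fold and 1.41-fold above the day 0 limit, and 48.8% of its day 7 UMIs came from 1 cell. The growth factor list had medians of 0.31, 0.49 and 0.10 over 18, 15 and 17 genes, with 5, 4 and 4 at least 2-fold higher (background 21.3, 16.1 and 12.9%) and 2, 2 and 2 lower (10.2, 10.9 and 7.31%). Pdgfrb, the receptor through which PDGF acts on smooth muscle, stood at 128, 157, 199.8 and 202 CPM, and its ligand gene Pdgfa at 76.6, 208, 279.6 and 241 CPM. The ratio of Pdgfa to day 0 was 2.72 (1.24 to 7.45), 3.65 (1.64 to 10.1) and 3.15 (1.43 to 8.66) from 6 UMIs at day 0. Fgf2 had 1 UMI at day 0 and stood at 167, 61.6 and 144 CPM, with a ratio of 13.1 (2.33 to 518) at day 3. Ctgf, the matricellular connective tissue growth factor, stood at 7632, 4796, 3694 and 2928 CPM, lower than at day 0 on each later day, and 50.8% of its day 0 UMIs came from 1 cell.

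Over all genes, those furthest above day 0 were in large part genes of the lists above. At day 3 the 10 genes with the highest log2 ratio that met the terms on counts and detection were Timp1, Spp1, Vcam1, Thbs1, Igfbp2, Hist1h2ap, Tnc, Ptgs2, Emp1 and Stmn1. For genes without UMIs at day 0, the place in this order depends on the added 10 CPM. At the bound, the log2 ratios of Timp1 and Vcam1 were 4.53 and 3.88, below those of Spp1 (5.96) and Thbs1 (5.16). Igfbp2, an insulin-like growth factor binding protein, had no UMI at day 0 and was at 263 CPM at day 3, at least 6.86-fold higher. At day 14 it stood at 295 CPM, of which 73.5% came from 1 member of 62535 UMIs, and at 82.5 CPM without it. Stmn1, a microtubule-destabilising protein of dividing cells, stood at 155 and 213 CPM at days 3 and 7 and 9.15 CPM at day 14. The histone gene Hist1h2ap had 57.4% of its day 3 UMIs in 1 cell, and it has near-identical copies between which reads may have been split. At day 7 the leading genes were Lum, Timp1, Lcn2, Vcam1, Cthrc1, Ankrd1, Clca3a2, Rcn1, Tmem176b and Thbs1. Of these, Ankrd1 and Clca3a2 each had 73.3% of their UMIs in 1 cell, and Rcn1, a calcium-binding protein of the endoplasmic reticulum, was held by 14 of 22 members at 226 CPM. At day 14 the leading genes included Lum, Igfbp2, Vcam1, Timp1, Tnc, Creb3l1, Acan and Sdc3. Acan, which encodes the cartilage proteoglycan aggrecan, had UMIs in 31 of 60 members at 79 CPM, at least 2.06-fold above the day 0 limit. Creb3l1, a factor that drives collagen secretion, was held by 36 of 60 at 96.5 CPM.

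The genes furthest below day 0 were read by the same terms, and of the 20 programme genes above only Sost (days 3 and 7) and Synpo2 (day 7) were among the 10 lowest of any day. At day 3 they were Sost, Fibin, Cped1, Rrad, Ogn, Col14a1, Dnajb4, Gstm1, Ank2 and Ptprz1. Sost stood at 1889, 154, 296 and 841 CPM on days 0, 3, 7 and 14, with ratios of 0.0816 (0.0669 to 0.0999) at day 3, 0.157 (0.125 to 0.196) at day 7 and 0.445 (0.374 to 0.533) at day 14. Its lowest, median and highest members were 0, 1786 and 2935 CPM at day 0, 0, 0 and 1299.5 at day 3, 0, 42.4 and 2780 at day 7 and 0, 761 and 4525 at day 14, so the days overlapped and the median cell of day 3 held none. Cped1, whose role is little known, stood at 2539.7, 356, 431 and 899 CPM, with ratios of 0.14 (0.12 to 0.165) and 0.17 (0.141 to 0.205) at days 3 and 7. Ogn, which encodes the small proteoglycan osteoglycin, stood at 1710.1, 254, 376 and 814 CPM. At day 7 the 10 genes were Sost, Rbp4, Cped1, Mylk4, Fmo2, Ank2, Thsd4, Adamts1, Synpo2 and Ogn. Rbp4 encodes a retinol carrier, Ank2 the membrane adaptor ankyrin 2 and Adamts1 a secreted protease. Mylk4, a myosin light chain kinase family member, stood at 727, 182, 118 and 366 CPM and the monooxygenase gene Fmo2 at 1697, 376, 303 and 582 CPM. At day 14 the rule gave Bc1, Hspa1b, Bag3, Dnajb1, Adamts1, Xirp1, Ank2, Dnajb4, Fryl and Gadd45g. Of these, Hspa1b, Bag3, Dnajb1 and Dnajb4 encode heat shock proteins or their partners. Single day 0 members gave 83.3% of the day 0 UMIs of Bag3, 91.3% of Dnajb1 and 81.8% of Adamts1, so their ratios rested on 1 cell. With a mitochondrial limit of 5% the log2 ratios of Rrad at day 3 and Dnajb1 at day 14 were 0.15 and 3.97, in the other direction.

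To describe the spread between contractile and less contractile cells, the members of each day were ranked by the share of the rule genes and cut in tertiles of 2, 17, 7 and 20 cells. This is a cut of a range and not a pair of types. Within 10% of the lower and the upper cut lay 3 and 8 members at day 3, 3 and 3 at day 7 and 8 and 8 at day 14. At day 7 all 7 cells of the lower tertile were among those given above as high in Malat1, pericyte or fibroblast genes. Malat1 took 15.4, 27.1 and 16.7% in those of 1157, 3600 and 1235 UMIs, and pericyte markers 1.98% in that of 1716. Lum and Dcn took 0.399 and 0.0307%, 0.767 and 0.502%, and 0.0889 and 0.114% in those of 16279, 33657 and 131625. Day 7 ratios therefore set the upper tertile against these cells, and their part was not tested further. Levels are CPM of the UMIs outside the rule genes, and a ratio is upper over lower tertile. On days 3, 7 and 14, the lower tertiles lay at or below 1.56%, 1.11% and 2.70% and the upper tertiles at or above 3.44%, 2.52% and 4.37%. The other contractile genes followed the rule genes on these days. Of them, 10 of 14 were at least 2-fold higher in the upper tertile and none lower at day 3, 10 of 14 and 1 lower at day 7, and 7 of 15 and none lower at day 14. Over all genes compared, the shares at least 2-fold higher and lower were 3.77% and 10% of 7027 at day 3, 13.7% and 14.1% of 3034 at day 7, and 3.17% and 4.43% of 4924 at day 14. The medians of the list were 1.28 (1.10 to 1.53), 1.42 (1.01 to 1.88) and 0.93 (0.57 to 1.25), beside -0.14, -0.10 and 0.02 over all genes. At day 0, where a tertile held 2 cells and the deeper one gave 94.2% of the UMIs of the lower tertile, the median was -0.26 (-1.11 to 0.67), none of 13 genes was 2-fold apart where 12.2% of 403 genes were higher and 9.68% lower, and it was 1.15 without the deepest member.

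Ppp1r14a stood at 800.2 CPM in the upper and 140.3 CPM in the lower tertile at day 3, at 745 and 118 at day 7 and at 1285 and 324 at day 14, ratios of 5.7 (4.61 to 7.09), 6.34 (4.02 to 10.5) and 3.96 (3.17 to 4.99). Cnn1 had ratios of 3.82 (3.3 to 4.42), 5.69 (4.13 to 8.0) and 3.01 (2.56 to 3.57), and Tpm2, a tropomyosin, of 3.68 (3.41 to 3.97), 2.77 (2.35 to 3.26) and 2.82 (2.57 to 3.1). Vcl, which encodes vinculin of focal adhesions, had ratios of 1.21 (1.02 to 1.44), 1.52 (1.11 to 2.09) and 1.05 (0.845 to 1.32). Actg2 was the gene that was lower at day 7, with ratios of 2.08 (1.7 to 2.53), 0.359 (0.229 to 0.549) and 2.66 (1.86 to 3.89). Without the deepest member, the day 7 value of Actg2 was 0.74 on the log2 scale, in the other direction. Cell by cell, the share of the other contractile genes ran from 0.925% to 2.4% in the upper and from 0.438% to 1.31% in the lower tertile at day 3, so the tertiles overlapped. At day 7 the ranges were 1.38% to 2.12% and 0.386% to 1.12%, without overlap. Over the members of a day, the share of the rule genes and that of the other contractile genes had Spearman correlations of 0.88 (n = 51), 0.71 (n = 22) and 0.87 (n = 60), and 0.75, 0.67 and 0.69 on thinned counts. The points of a day share their library, and both shares are parts of the same cell's UMIs.

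**Figure D4:**
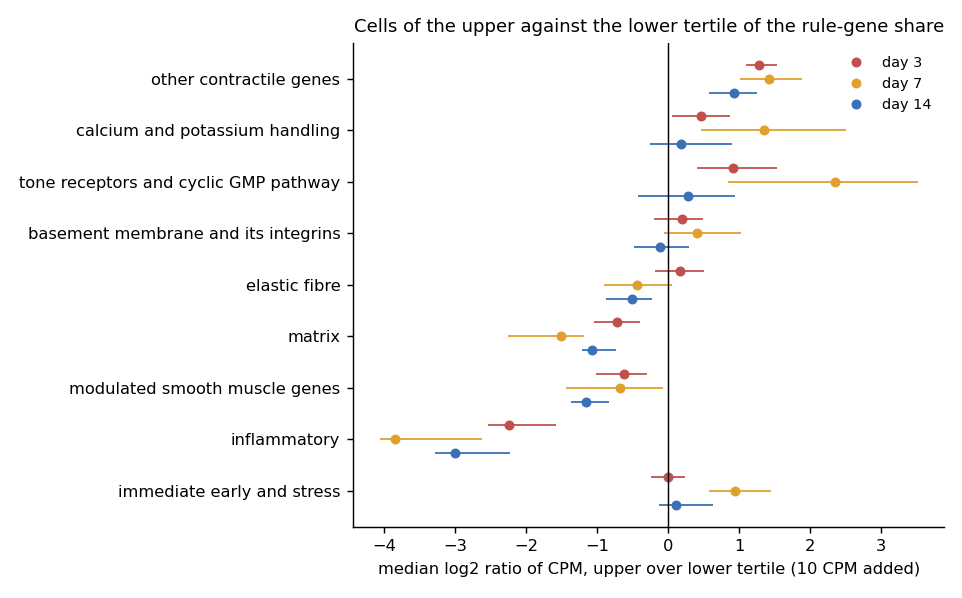
Median log2 ratio of each gene list in the upper over the lower tertile of members by rule-gene share (10 CPM added, UMIs outside the rule genes) on days 3, 7 and 14, with lines from the medians of the genes' counting limits. Other contractile genes lie above 0 and matrix and inflammatory genes below it.

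Over all genes outside the rule, 19 met the terms for being at least 2-fold higher in the upper tertile on each of days 3, 7 and 14, and 5 for being lower. The terms had been set for all 4 libraries, where no gene met them, and the count without day 0 was added after the data were seen. The counts depended on the members used: over members with at most 30000 UMIs they were 6 and 0, and without the members high in pericyte genes or Malat1 or with fewer than 3 markers 11 and 9. The 19 included the contractile genes Ppp1r14a, Cnn1, Tpm2 and Csrp1, genes of actin and Z-disc structure (Csrp2, Pdlim3, Nexn and Dstn), and Lims2. Csrp2, a muscle LIM protein, stood at 4629 against 631 CPM at day 3, 3568 against 790.5 at day 7 and 4500.5 against 1657 at day 14. With a mitochondrial limit of 5% its day 7 log2 ratio was -0.37, in the other direction. The small heat shock proteins Hspb1 and Hspb6, the kinase Rock1, which acts on myosin phosphatase, the adenylate cyclase Adcy5 and the adhesion molecule Mcam were also among them. Rock1 stood at 741 against 221 CPM, 1451 against 283 and 963 against 453. The others were Gm13889, Fbxl22, Sh3bgr, Rrad and Nov. At day 7 the sign also turned for Rrad, Sh3bgr, Lims2, Nov, Pdlim3, Hspb1 and Adcy5 under the mitochondrial limit of 5%, and for Rrad, Gm13889, Mcam, Pdlim3 and Hspb1 over members with at most 30000 UMIs. At day 3 it turned for Hspb1 under the first of these settings and for Lims2 under the other. The 5 genes higher in the lower tertile were Thbs1, Timp1, Cxcl12, Mgp and the tetraspanin-like membrane protein gene Tm4sf1. Mgp stood at 5654 CPM in the upper and 23903 CPM in the lower tertile at day 3, 8337 and 20242 at day 7 and 7342 and 28501 at day 14. Over members with at most 30000 UMIs the day 7 log2 ratios of Mgp, Cxcl12 and Tm4sf1 were 0.52, 1.87 and 2.14, in the other direction, as was that of Thbs1 under the mitochondrial limit of 5%, at 1.67. The day 3 ratio of Tm4sf1 turned as well, to 0.81 at 30000 UMIs. Timp1 stood at 331 and 1582, 100.05 and 945, and 37.9 and 310.4 CPM, ratios of 0.21 (0.176 to 0.248), 0.106 (0.0613 to 0.172) and 0.122 (0.0668 to 0.209).

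Matrix genes were lower in the upper tertile in the median, with log2 ratios of -0.72 (-1.05 to -0.40), -1.51 (-2.26 to -1.19) and -1.07 (-1.22 to -0.73) on days 3, 7 and 14. Of 16, 17 and 15 genes compared, 7, 13 and 8 were at least 2-fold lower (background 10, 14.1 and 4.43%) and none at least 2-fold higher. The values of days 3 and 7 depended on the limit on depth. The lower tertile of day 7 held 1 member of 131625 UMIs, which gave 69.5% of the UMIs, beside 4 members under 10000 UMIs. Over members with at most 30000 UMIs the day 7 value was 0.53, in the other direction, and -0.91 as a mean over cells. The day 3 value was 0.03 over members with at most 30000 UMIs. Without the members holding Pdgfra, Dcn and Lum together at 0.1% of UMIs or more, which were 0, 2, 6 and 11 on days 0, 3, 7 and 14, the day 7 and day 14 medians were -0.38 and -0.37. Fibroblast markers themselves were lower in the upper tertile at days 7 and 14, at medians of -3.22 and -2.49 with 5 of 6 genes at least 2-fold lower on each day beside the same background, and their part in the matrix values was not tested further. Not every matrix gene followed the median. Col1a1 had ratios of 1.03 (0.959 to 1.1), 0.144 (0.125 to 0.165) and 0.475 (0.427 to 0.528) on days 3, 7 and 14, Fn1 of 0.33 (0.303 to 0.36), 1.21 (1.07 to 1.37) and 0.42 (0.374 to 0.473), and Postn, which encodes periostin, of 1.16 (1.07 to 1.26), 1.46 (1.23 to 1.75) and 1.17 (1.01 to 1.35). The day 7 log2 ratio of Col1a1 was 0.46 over members with at most 30000 UMIs, and the day 3 log2 ratio of Fn1 was 0.13 with a mitochondrial limit of 5%, each in the other direction.

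Cell by cell, matrix genes took between 0.783% and 4.44% of UMIs in the upper tertile and between 0.0498% and 8.3% in the lower tertile at day 3, with medians of 1.89% and 4.07%. At day 14 the medians were 1.69% and 3.61%, and the tertiles overlapped on days 3, 7 and 14. At day 0, with 2 members in each, they did not. Of the 48 members with a rule-gene share under 2%, 18 had at least 5% of their UMIs from matrix genes, and of the 42 members with at least 4% rule genes, 1 had. The cells low in contractile genes were therefore mixed, and most of them stood below the 5% cut, which 25 of all 139 members reached. The highest day 0 member, that of 1123 UMIs, stood at 3.12%, so a cell below the cut could still exceed the day 0 range. Some of the lowest matrix shares came from members with at most 1 Malat1 UMI, such as 0.0498% in the day 3 member of 4014 UMIs. The Spearman correlation of the rule-gene and matrix shares was -0.38, -0.06 and -0.30 over the members of days 3, 7 and 14. Over members of at least 10000 UMIs it was -0.68 (n = 40), -0.81 (n = 15) and -0.44 (n = 52), with the same sharing of library and total as above. On thinned counts of all members it was -0.28, -0.09 and -0.38.

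**Figure D5:**
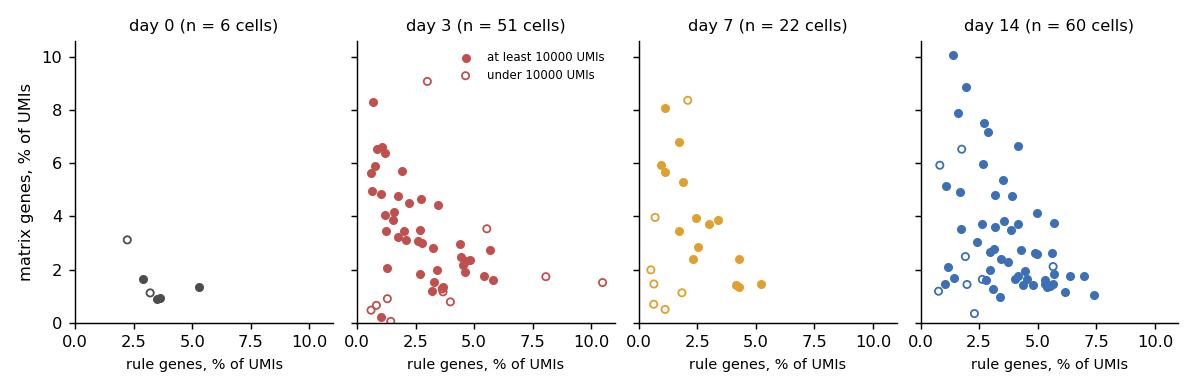
Share of UMIs from the 18 matrix genes against the share from the 4 rule genes (percent), 1 point per member and 1 panel per day, filled for members of at least 10000 UMIs and open for shallower ones. Of the 42 members at or above 4% rule genes 1 reached 5% matrix, and below 2% the matrix share runs from near 0 to over 8%.

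Inflammatory genes on days 3, 7 and 14 and proliferation genes on days 3 and 7 were also lower in the upper tertile in the sums. At day 3 the median member had 44353 UMIs in the lower and 26485 in the upper tertile. Spearman correlations of the inflammatory and proliferation shares with the rule-gene share were -0.57 and -0.57 that day. They were -0.12 and -0.20 on thinned counts, and -0.74 and -0.61 over members of at least 10000 UMIs. The part of depth was not tested. The inflammatory list had medians of -2.24 (-2.53 to -1.58), -3.84 (-4.06 to -2.62) and -3.0 (-3.29 to -2.22) on days 3, 7 and 14, or -2.37, -3.23 and -3.30 at the bound, with 6 of 8, 5 of 6 and 9 of 9 genes at least 2-fold lower (background 10, 14.1 and 4.43%) and none higher. At day 14, 80.5% of the 707 inflammatory UMIs in the lower tertile came from 1 member of 22640 UMIs, and at day 7 58.3% of 369 from 1 of 33657 UMIs. The list's share in the median cell was 0.0215% in the upper and 0.102% in the lower tertile at day 3, 0.0164% and 0.0745% at day 7 and 0.0185% and 0.0368% at day 14. Cxcl12 stood at 113 CPM in the upper and 735 CPM in the lower tertile at day 3, 27.8 and 598 at day 7 and 54.4 and 276 at day 14. Vcam1 stood at 50.2 and 1279 CPM at day 3, 189 and 309.8 at day 7 and 23.7 and 593 at day 14. The proliferation list was lower in 15 of 15 genes at day 3, at a median of -2.75 (-2.78 to -1.88), and in 9 of 9 at day 7, at -4.34 (-4.53 to -2.92). Its share in the median cell was 0.00304% in the upper and 0.0747% in the lower tertile at day 3, but 0.00479% and 0% at day 7, where the member of 131625 UMIs gave most of the sum. At day 14 only 1 of its genes could be compared, at -0.42 (-1.26 to 0.66), and the median cell was at 0.00395% and 0%. Mki67 stood at 0 and 177 CPM at day 3, so none of its UMIs lay in the most contractile cells of that day.

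Genes of the contractile apparatus's signalling showed the difference between tertiles less evenly. The tone and cyclic GMP list had medians of 0.91, 2.35 and 0.28, with 3 of 7, 4 of 5 and 0 of 7 genes at least 2-fold higher (background 3.77, 13.7 and 3.17%), and calcium and potassium handling had 0.46, 1.35 and 0.18, with 2 of 8, 5 of 6 and 0 of 9. Gucy1a1 had ratios of 2.36 (1.66 to 3.37), 6.96 (4.1 to 12.6) and 0.631 (0.501 to 0.795). Its day 3 log2 ratio was -0.34 over members with at most 30000 UMIs and -0.56 as a mean over cells, so its order at day 3 depended on the setting. Itga8 had ratios of 2.87 (2.54 to 3.26), 7.02 (5.24 to 9.59) and 1.35 (1.18 to 1.54), and Sost of 304 (53.8 to 12066), 15.4 (8.39 to 31.5) and 1.79 (1.48 to 2.16). Over members with at most 30000 UMIs the day 3 log2 ratios were -0.65 for Itga8 and -0.87 for Sost, in the other direction. Elastic fibre genes had medians of 0.16, -0.44 and -0.51, and Eln had ratios of 0.822 (0.788 to 0.857), 0.636 (0.592 to 0.684) and 0.569 (0.541 to 0.598), so tropoelastin was closer between tertiles than Mgp. Basement membrane genes had medians of 0.20, 0.40 and -0.11. Klf4 was lower in the upper tertile at days 3 and 7, with ratios of 0.314 (0.21 to 0.456) and 0.17 (0.0695 to 0.362), and stood at 1.27 (0.861 to 1.91) at day 14, whereas Myocd stood at 1.11 (0.805 to 1.52), 3.22 (1.59 to 7.04) and 1.55 (0.98 to 2.51). The day 7 log2 ratio of Klf4 was 1.31 with a mitochondrial limit of 5% and 0.014 without the members high in Pdgfra, Dcn and Lum, so its direction did not hold. The lower tertile of day 7 had a median of 3600 UMIs and 2.39% mitochondrial UMIs against 24122 and 7.82% in the upper, and the part of depth in these values was not tested further.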

How the data were processed

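The deposited files held unnormalized counts of UMIs, a value for each gene in each barcode of 4 droplet libraries, 31053 genes each, made by the authors with Cell Ranger (3.0.2 per the file headers; the methods name another version). The genome build named in the sources is a human one, so no coordinate from the files was used. Total UMIs per library were 2672722 (day 0), 18989081 (day 3), 27973418 (day 7) and 13329564 (day 14). No column of other samples was found (0).

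Libraries were grouped by the labelled day. Members were found by the stated rule, and members and gene lists were chosen with earlier results of these data known. Counts were summed over members of a library and scaled to counts per 1000000 UMIs (CPM). Ratios were log2 values after adding 10 CPM, over genes with at least 20 UMIs in the compared sums. Poisson intervals of ratios and exact binomial intervals of shares (95%) cover counting error only. Within each library, members were ranked by rule-gene share and cut into tertiles, with CPM over UMIs outside the rule genes. With 1 library per day no test was made.

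Named genes were the rule genes, list genes with the highest or lowest ratio or a stated role, and, per day, the 10 highest and 10 lowest ratios among genes with at least 50 UMIs, a 2-fold ratio, an interval excluding 1 and detection in at least 20% of members on the higher side. The same terms, set for upper against lower tertile in all 4 libraries, gave no gene; counting over days 3, 7 and 14 was added after the data were seen. The 20 genes with the highest smallest ratio of members to other barcodes described the programme. Some genes that these rules name are not reported here. Doublets were not removed: Scrublet's own threshold marked 17 of 6161 barcodes, so the highest scores at a rate of 0.8% per 1000 barcodes (106 barcodes, 5 of them members, all at day 14) were left out as an alternative. Other alternatives varied the rule's terms, the depth limits, the added CPM, the filter, the total and the cut; those on shared barcodes, the deepest member, a 10000-UMI minimum, odd members and members low in Malat1 were chosen after seeing the data. Ratio code was tested on simulated data. Python 3.11.15, scanpy 1.11.5, scipy 1.17.1, numpy 2.4.6, pandas 2.3.3, anndata 0.12.19 and matplotlib 3.10.9 were used.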

Additional observations from a re-analysis of the deposited data

How the results depend on the processing

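The main values were the member share, the spread of the rule-gene share (its percentile ratio), the log2 medians of other contractile and matrix genes against day 0 and between tertiles, and the counts of genes past the tertile terms. Under the alternatives, 343 of these values stayed within their counting interval (for counts of genes, within 1.5 times), 52 did not, and 1 turned its sign. With the Myh11 and Cdh5 terms read from counts thinned to 1000 UMIs (115 members), the member share was 3.18% (day 3), 12 higher and 8 lower genes met the tertile terms and the tertile median of contractile genes was 1.15 (day 0). With a rule-gene share of at least 1% (125 members), the spread was 4.54 (day 3) and 9 lower genes met the tertile terms. With a share of at least 0.25% (152 members), the spread was 10.6 (day 3), 9 lower genes met the tertile terms, the tertile median of contractile genes was 1.61 (day 3) and the tertile median of matrix genes was -0.69 (day 7). The sign then turned for Hspb1 (-1.16) between tertiles on day 3, Actg2 (3.25) between tertiles on day 7. With at most 30000 UMIs per member (90 members), the member share was 1.98% (day 3), the contractile median against day 0 was -0.33 (day 3), the matrix median against day 0 was 0.83 and 1.05 (days 3 and 7), 6 higher and 0 lower genes met the tertile terms, the tertile median of contractile genes was 0.96 (day 3) and the tertile median of matrix genes was 0.030 and 0.53 (days 3 and 7). Log2 ratios of opposite sign were then those of Spp1 (-0.041) against day 0 on day 3, Hes1 (-0.16) against day 0 on day 7, Itga8 (-0.65), Sost (-0.87), Gucy1a1 (-0.34), Lims2 (-0.57) and Tm4sf1 (0.81) between tertiles on day 3, Actg2 (3.17), Col1a1 (0.46), Mgp (0.52), Cxcl12 (1.87), Rrad (-4.25), Gm13889 (-0.35), Mcam (-1.16), Pdlim3 (-2.34), Hspb1 (-1.05) and Tm4sf1 (2.14) between tertiles on day 7. With a mitochondrial limit of 5% (66 members), the member share was 1.99% and 3.97% (days 3 and 14), the spread was 5.25 (day 14), the matrix median against day 0 was 2.19 and 1.95 (days 3 and 14), 7 higher and 8 lower genes met the tertile terms, the tertile median of contractile genes was 1.87 and 1.36 (days 3 and 14) and the tertile median of matrix genes was -0.23 (day 7). Genes whose log2 ratio then turned its sign were Kcnmb1 (0.82), Nr4a1 (0.021) and Rrad (0.15) against day 0 on day 3, Kcnmb1 (0.53) and Des (2.60) against day 0 on day 7, Dnajb1 (3.97) and Des (2.88) against day 0 on day 14, Fn1 (0.13) and Hspb1 (-0.79) between tertiles on day 3, Actg2 (2.51), Klf4 (1.31), Thbs1 (1.67), Csrp2 (-0.37), Rrad (-2.02), Sh3bgr (-0.12), Lims2 (-0.45), Nov (-0.093), Pdlim3 (-0.52), Hspb1 (-0.11) and Adcy5 (-1.62) between tertiles on day 7. Without the highest doublet scores (134 members), 10 higher genes met the tertile terms. Without members high in Pdgfra, Dcn and Lum (120 members), the spread was 2.92 (day 14), 8 higher and 2 lower genes met the tertile terms, the tertile median of matrix genes was -0.38 and -0.37 (days 7 and 14) and the tertile median of contractile genes was 0.54 (day 14). Genes whose log2 ratio then turned its sign were Cxcl12 (-0.27) against day 0 on day 7, Klf4 (0.014) between tertiles on day 7. Without the deepest member of each day (135 members), 9 lower genes met the tertile terms and the tertile median of contractile genes was 1.15 (day 0). The sign then turned for Actg2 (0.74) and Rrad (-0.065) between tertiles on day 7. With at least 10000 UMIs per barcode (111 members), the member share was 7.91%, 1.67% and 9.74% (days 3, 7 and 14) and 8 lower genes met the tertile terms. Without members high in pericyte genes or Malat1 or with fewer than 3 markers (120 members), 11 higher and 9 lower genes met the tertile terms. As a mean of each member's CPM, the contractile median against day 0 was -0.60 (day 3) and the tertile median of matrix genes was -0.91 (day 7). Genes whose log2 ratio then turned its sign were Cxcl12 (-0.67) against day 0 on day 3, Lgals3 (-0.21), Cxcl12 (-1.25) and Des (0.78) against day 0 on day 7, Lgals3 (-0.30) against day 0 on day 14, Gucy1a1 (-0.56) between tertiles on day 3, Actg2 (0.41), Rrad (-1.84) and Mcam (-0.53) between tertiles on day 7. With cells cut at the median in place of tertiles, 6 higher and 10 lower genes met the tertile terms, the tertile median of contractile genes was 0.98 and 0.46 (days 3 and 14) and the tertile median of matrix genes was -0.89 and -0.63 (days 7 and 14). With cells ranked after thinning, the tertile median of matrix genes was -1.24 (day 14). Genes whose log2 ratio then turned its sign were Actg2 (0.14) between tertiles on day 7. The cause was not tested for any of these. Of the values of single genes under the alternatives, 4947 stayed within their counting interval, 1049 did not and 53 turned their sign. A minimum of 2000 UMIs, leaving out the shallower shared barcodes or the members with at most 1 Malat1 UMI, adding 1 CPM, no filter on low counts and the other total moved no main value. The alternatives on shared barcodes, the deepest member, the 10000-UMI minimum, the odd members and the members low in Malat1 were chosen after seeing the data. No paired analysis was possible because each day had 1 library. For the same reason no replicate could be left out, and a difference between days cannot be told apart from one between libraries. The 6 members of day 0 set the precision of the comparisons with it, since 3 UMIs there correspond to 38.3 CPM.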
